A study of Arabidopsis thaliana with 22 samples.

Results

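The KNOX genes are the KNOTTED1-like homeobox genes of Arabidopsis thaliana, and 9 of the 27432 protein-coding genes in the annotation belong to them. They were chosen by name, with earlier results of these data known. Shares of all genes stand beside their counts for scale only. Class I holds STM (AT1G62360), KNAT1 (AT4G08150, also called BREVIPEDICELLUS), KNAT2 (AT1G70510) and KNAT6 (AT1G23380). Class II holds KNAT3 (AT5G25220), KNAT4 (AT5G11060), KNAT5 (AT4G32040) and KNAT7 (AT1G62990). KNATM (AT1G14760) belongs to neither class. STM, KNAT2, KNAT6, KNAT7 and KNATM lie on chromosome 1, KNAT1 and KNAT5 on chromosome 4, and KNAT3 and KNAT4 on chromosome 5. For each gene, the enriched islands of 2 histone marks were taken over the gene body and 1 kb either side.

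Class I KNOX proteins keep cells of the shoot meristem undifferentiated, and STM is the gene without which the shoot meristem is not maintained. Class I genes are shut off where a leaf or floral organ starts, and the AS1 and AS2 proteins and Polycomb complexes keep them off in the leaf. Class II genes are transcribed in differentiating organs, where they oppose class I activity, and KNAT7 regulates secondary cell walls. KNOX proteins act together with BELL homeodomain proteins. KNATM has the protein interaction domain of the family without the homeodomain. Polycomb complexes place H3K27me3 on repressed genes, and H3K4me3 marks the start of genes that are transcribed or poised.

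All plants were of the Landsberg erecta (Ler) background. Chromatin came from untreated ap1-1 cal-1 35S::AP1:GR shoots (apex t0), from such shoots 2 days after 10 µM dexamethasone (apex t2), from main inflorescences of wild type without the flowers past stage 12 (inflorescence), and from rosette leaves of wild type in flower (leaf). The ap1 cal double mutant makes cauliflower-like heads of meristems, and dexamethasone activates the AP1 fusion protein, which is driven by the constitutive 35S promoter, so that floral meristems form in near synchrony. The apices thus differ from leaf and inflorescence in genotype as well as in tissue. Each stage and mark had 2 replicates, which gives 16 ChIP libraries.

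The H3K4me3 libraries had 6635471 to 23673881 reads within islands and the H3K27me3 libraries 3779918 to 19379225. Within every pair of replicates, replicate 1 had fewer reads. Inflorescence replicate 1 was the shallowest H3K27me3 library. A level is given as RPM, for replicate 1 and then replicate 2. RPM is the island reads assigned to a gene body per 1000000 island reads on tested genes, after scaling between libraries. The reads of an island were shared out evenly over its length, so the level on a body is an average over each whole island. Where an island runs past the gene, the level depends on its reads outside the body too. RPM per kb of gene body is used where genes are compared with each other. A gene without an island lay below the authors' threshold, which is not a measured level of 0, so a fold change is given only where all 4 libraries compared had islands on the gene. Fold changes are on the log2(RPM + 1) scale with a standard error that pools the spread of a gene over the 4 stages of a mark. Limma moderates this error with the spread of all genes tested. A stage without islands in both libraries adds no spread, which can make the error too small. A gene was called at a limma adjusted p under 0.05. Of the 9 genes, 7 had H3K4me3 islands in both replicates of some stage and were tested for it (all but KNAT7 and KNATM), and 7 were tested for H3K27me3 (all but KNAT3 and KNAT5). Because the tissues are bulk samples, fewer marked cells and less mark per cell cannot be told apart, and neither can 2 marks on the same chromatin and 2 marks in different cells.

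The tissues were checked against marker genes chosen for leaf, floral organs and other meristem regulators. H3K4me3 lay on 5 of 5 leaf markers in every library, with a summed level of 228 to 258 RPM in the 4 apex libraries, 393 and 377 RPM in the inflorescence and 522 and 426 RPM in leaf. The markers differed. RBCS1B and LHCB2.1 were called lower at t0 against leaf (limma adjusted p = 0.00429 and 0.0163). RBCS1A, CAB1 and CAB2 were not called (limma adjusted p = 0.258, 0.432 and 0.288). H3K4me3 on the 5 floral organ markers (AP3, PI, AG, SEP3 and SEP1) summed to 0 and 11.6 RPM at t0, 42.9 and 104 RPM at t2 and 137 and 247 RPM in the inflorescence, and all 5 were without an island in both leaf libraries. Meristem regulators other than KNOX genes (ANT, AIL6, CUC2 and LFY) summed to 293 to 392 RPM in the apices, 162 and 128 RPM in the inflorescence, and 73.9 and 0 RPM in leaf. The leaf value was LFY in replicate 1 alone. In the inflorescence CUC2 had no island, and LFY had none in replicate 2.

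H3K4me3 set class I apart from KNAT3, KNAT4 and KNAT5 of class II by tissue. All 4 class I genes carried an H3K4me3 island on the gene body in each of the 6 apex and inflorescence libraries and in neither leaf library. This pattern held for 231 of 27432 genes, which is 0.842% of them. It concerns the gene body. With 1 kb either side, KNAT2 and KNAT6 had an H3K4me3 island in 8 of 8 libraries, leaf included. Class II genes KNAT3, KNAT4 and KNAT5 carried an H3K4me3 island in 8 of 8 libraries, as did 53.5% of all genes. KNAT7, also of class II, had an H3K4me3 island in 1 of 8 libraries, leaf replicate 2 (13.4 RPM). KNATM had none in any library, like 30.4% of all genes.

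STM had 78.0 and 106 RPM of H3K4me3 at t0, 85.9 and 104 RPM at t2, 21.5 and 47.6 RPM in the inflorescence, and no island in leaf. The apex libraries were all above the inflorescence libraries. The apex islands ran from 23059601 or 23059801 to 23061800 on chromosome 1 (TAIR10) and covered 57.4% to 63.2% of the gene body, against 28.7% and 40.2% in the inflorescence. The authors' fold over control, their own value for each island, was 3.34 to 4.29 on the apex islands, 1.82 and 1.77 on the inflorescence islands.

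KNAT1, which shapes internodes and pedicels, had 85.6 and 98.9 RPM at t0, 84.4 and 91.4 RPM at t2, 33.3 and 64.3 RPM in the inflorescence, and no island in leaf. Its islands spread over chromosome 4 from 5148801 to 5151000 at the widest and covered 46.2% to 63.6% of the body in the apices. KNAT2, a regulator of carpel and pedicel development, had 106 and 105 RPM at t0, 106 and 102 RPM at t2, and 38.4 and 62.0 RPM in the inflorescence. Its island started at position 26576401 of chromosome 1 in all 6 libraries and took in only the low-coordinate end of the gene, 17.4% to 23.7% of a body of 6.394 kb. KNAT6, which acts with STM in the meristem and at organ boundaries, had 83.3 and 94.2 RPM at t0, 87.8 and 87.1 RPM at t2, and 40.3 and 69.0 RPM in the inflorescence. Its island covered 25.9% to 26.8% of the body at the high-coordinate end, from 8301201 to 8302600 or 8302800. For each of the 4 genes the lowest apex value lay above the highest inflorescence value.

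Against leaf, 5 of the 7 KNOX genes tested were called in H3K4me3 at t0, where 8.13% of all genes tested were. The 4 class I genes were higher, as were 3.86% of all genes tested, and KNAT4 was lower. The adjusted p was 0.00286 for STM, 0.00169 for KNAT1, 0.000633 for KNAT2 and 0.00112 for KNAT6. In these tests a library without an island enters as 0 RPM, so the leaf pair contributed no spread, and the 4 genes had entered the test only through the apices and the inflorescence. When at least 50% of the body had to lie under islands, KNAT1 was not called at t0 (adjusted p = 0.246; 0.00138 to 0.246 over 15 alternatives), and KNAT2 and KNAT6 could not be tested.

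The inflorescence compared with leaf called the 4 class I genes in H3K4me3 and no other KNOX gene, where 4.10% of genes tested were called. All 4 were higher, as were 2.16% of genes tested (1.94% were lower), with adjusted p from 0.00145 for KNAT2 to 0.00805 for STM. Both comparisons use the same leaf libraries. Here too the leaf pair at 0 RPM contributed no spread, and the 4 genes had entered the test only through the apices and the inflorescence. Their direction could therefore only be higher. The STM call was lost without apex t2 replicate 2 (adjusted p = 0.0556; 0.00678 to 1 over 15 alternatives) and when islands under a fold of 2 were left out, which removes both inflorescence islands of STM. The 50% rule also left STM without an inflorescence island and without a call. KNAT1 was again not called under the 50% rule (adjusted p = 0.619; 0.00296 to 0.619 over 15 alternatives).

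None of the 9 genes was called for H3K4me3 in the inflorescence against apex t2, where 1.28% of genes tested were called (0.795% higher and 0.488% lower), and 1246 of the 17620 genes tested had an unadjusted p under 0.05 in limma. The log2 fold changes were -1.53 ± 0.49 for STM (adjusted p = 0.433), -0.91 ± 0.41 for KNAT1 (adjusted p = 0.806), -1.07 ± 0.32 for KNAT2 (adjusted p = 0.381) and -0.72 ± 0.37 for KNAT6 (adjusted p = 0.960). These errors take in the leaf pair at 0 RPM, which adds no spread, so they can be too small. Replicate 1 was below replicate 2 in the inflorescence for all 4 genes. STM was called lower when islands under a fold of 2 were left out (adjusted p = 0.0221) and under the 50% rule (0.000809; up to 1 over 15 alternatives).

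**Figure D1:**
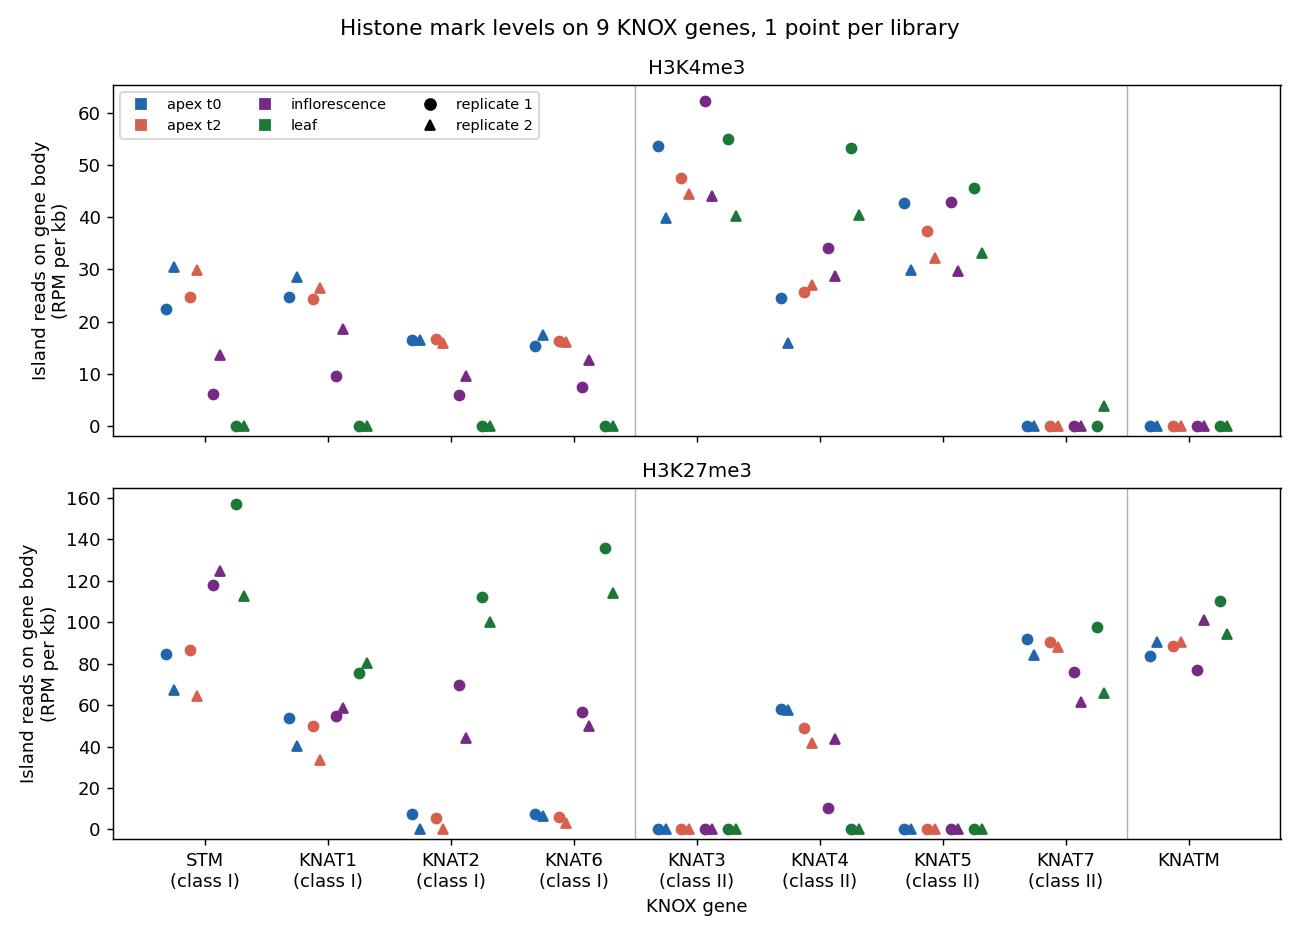
Level of H3K4me3 (top) and H3K27me3 (bottom) on the body of each KNOX gene, in RPM per kb of gene body, with 1 point per library, colours for the stages and circles and triangles for replicates 1 and 2; a point at 0 is a library without an island. Class I genes have H3K4me3 in the apex and inflorescence libraries and none in leaf, and KNAT2 and KNAT6 stand at no more than 7.30 RPM per kb of H3K27me3 in the apices.

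H3K27me3 split class I into 2 pairs. STM and KNAT1 kept islands over most of the gene body in all 8 libraries, while KNAT2 and KNAT6 had little or none in the apices and carried it over most of the body in leaf and inflorescence.

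STM had 295 and 234 RPM of H3K27me3 at t0, 301 and 224 RPM at t2, 412 and 435 RPM in the inflorescence, and 546 and 393 RPM in leaf. The apex libraries were below the leaf and inflorescence libraries, and leaf and inflorescence overlapped. The log2 fold change of t0 against leaf was -0.82 ± 0.23 and did not pass (adjusted p = 0.116; 0.0545 to 0.408 over 15 alternatives). At least 99.5% of the STM body lay under an H3K27me3 island in every library. What varied was the level, an average over the whole island, and how far the island ran past the gene. In leaf it ran from 23057801 to 23072200 in replicate 1 and from 23058601 to 23072000 in replicate 2, 14.4 and 13.4 kb long and 10.1 and 9.94 kb past the high-coordinate end of STM. In the apices it was 5.2 to 6.2 kb long and reached 1.74 to 2.74 kb past that end, and in the inflorescence 1.74 and 0.537 kb.

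KNAT1 had 186 and 139 RPM of H3K27me3 at t0, 173 and 116 RPM at t2, 190 and 204 RPM in the inflorescence, and 261 and 278 RPM in leaf. The leaf libraries were the highest and the apex libraries the lowest, with t0 replicate 1 just under the inflorescence. The log2 fold change of t0 against leaf was -0.74 ± 0.24 (adjusted p = 0.144). With 1 kb either side of the gene counted in, it was -1.35 and KNAT1 was called lower (adjusted p = 0.0308; 0.0308 to 0.897 over 15 alternatives). The apex islands lay wholly inside the gene, 2.6 to 2.8 kb long up to position 5150600, whereas the leaf islands ran over 11.4 and 18.8 kb, from 5146201 to 5157600 and from 5143801 to 5162600.

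KNAT6 had 39.5 and 36.1 RPM of H3K27me3 at t0, 31.8 and 16.4 RPM at t2, 308 and 269 RPM in the inflorescence, and 734 and 616 RPM in leaf. The 3 tissues did not overlap. H3K27me3 on KNAT6 fell at t0 against leaf, with a log2 fold change of -4.12 ± 0.31 (adjusted p = 0.00148), where 4.00% of genes tested were called lower, and KNAT6 was the 1 KNOX gene called lower there. With KNAT4, which was higher, 2 of the 7 genes tested were called, against 9.66% of all genes tested. H3K27me3 on KNAT6 rose in the inflorescence against apex t2, by 3.60 ± 0.31 on the log2 scale (adjusted p = 0.00556), where 3.52% of genes tested were called, 1.74% higher and 1.78% lower, and it was the 1 KNOX gene called. The second call was lost without apex t2 replicate 2 (adjusted p = 0.0570; 0.00154 to 0.0570 over 15 alternatives). The inflorescence did not pass against leaf (log2 fold change -1.22 ± 0.31, adjusted p = 0.156), but did without either apex t2 library and with 1 kb either side (adjusted p = 0.0264 to 0.487 over 15 alternatives).

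The KNAT6 islands differed in extent as well. Islands covered 100% of the body in both leaf libraries and 97.0% and 86.0% in the inflorescence, against 18.5% and 19.4% at t0 and 19.4% and 8.33% at t2. What was left on the body in the apices was an island at the high-coordinate end, starting at 8301601 or 8302201, with an authors' fold of 1.58 to 1.85. In t0 replicate 2 and both t2 libraries this island ran 1.35 to 1.75 kb past the gene. In t0 replicate 1 it ended at 8302600, and a second island lay past the gene, from 8303201 to 8304200 (fold 2.21). In level per kb the KNAT6 apex values ranked above only 0.0820% to 1.70% of the genes marked by H3K27me3 in the same library, and the leaf values above 91.6% and 92.1%.

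KNAT2 showed the same arrangement of tissues with 1 difference between replicates. It had 46.1 RPM of H3K27me3 in t0 replicate 1 and 35.6 RPM in t2 replicate 1, no island in replicate 2 of either, 445 and 282 RPM in the inflorescence, and 719 and 640 RPM in leaf. The apex islands of replicate 1 ran from 26576401 to 26577600, with an authors' fold of 1.76 and 1.39 and 17.4% of the body, while the leaf islands covered 100% and 92.5%. The libraries without an island were the deeper ones, with 16231141 island reads at t0 and 13745836 at t2, against 9996825 and 10852646 in replicate 1. With 1 replicate at 0 the spread was large and t0 did not pass against leaf (adjusted p = 0.180). KNAT2 was called lower at t0 when islands under a fold of 2 were left out (adjusted p = 0.000282) and when at least 50% of the body had to be covered (adjusted p = 0.000361; 0.000282 to 0.533 over 15 alternatives). The same 2 settings called it higher in the inflorescence against t2 (adjusted p = 0.00154 and 0.00216; 0.00154 to 1 over 15 alternatives).

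**Figure D2:**
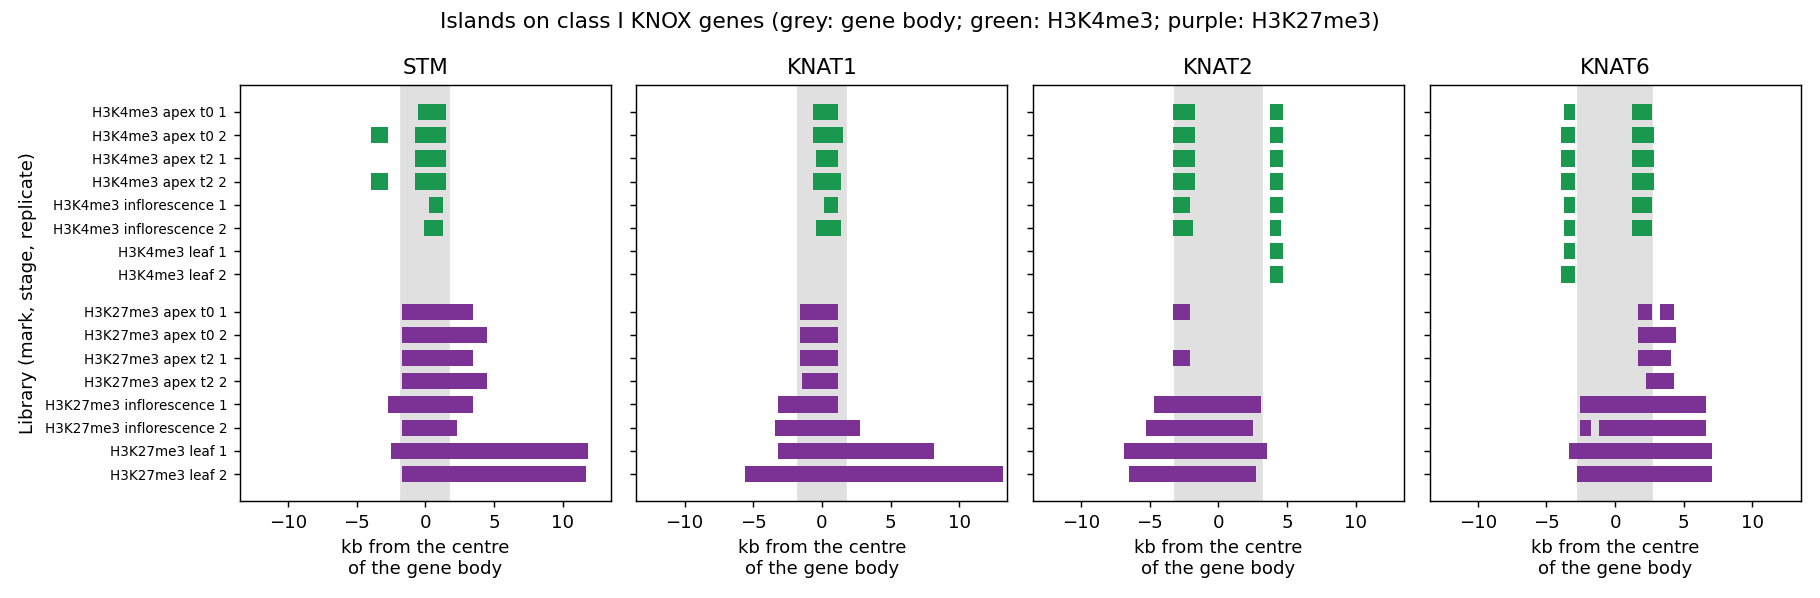
Islands on the 4 class I genes in the 16 libraries, as kb from the centre of the gene body along the chromosome, with the gene body in grey, H3K4me3 islands in green and H3K27me3 islands in purple. Leaf H3K27me3 islands reach 10.1 and 9.94 kb past STM and at most 2.74 kb in the apices, and on KNAT2 and KNAT6 the apex islands of both marks sit at the same end of the gene.

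STM, KNAT1 and KNAT6 had islands of both marks in the apices, but H3K27me3 on KNAT6 was weak there. Its islands on the body had an authors' fold of 1.58 to 1.85. In level per kb they ranked above only 0.0820% to 1.70% of marked genes. In both libraries of each mark at t0, both marks lay on STM, KNAT1 and KNAT6 of class I and on KNAT4 of class II, 4 of the 9 genes, as on 5.99% of all genes. The same 4 genes had both marks at t2, as had 5.97% of all genes. In the inflorescence KNAT2 joined them, which made 5 of 9 genes where 4.35% of all genes had both marks. STM, KNAT1, KNAT6 and KNAT4 had both marks in all 12 apex and inflorescence libraries, as had 3.18% of all genes. These counts take in weak islands. KNAT4 counts through an H3K27me3 island of 92 reads and fold 1.81 in inflorescence replicate 1. STM counts through inflorescence H3K4me3 islands of fold 1.82 and 1.77. None of the 9 had both marks in both leaf libraries of each mark, where 3.36% of all genes did.

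On STM the same bases lay under both marks over 57.4% to 63.2% of the body in the apices and over 28.7% and 40.2% in the inflorescence, with no stretch under H3K4me3 alone. On KNAT1 the shared part was 46.2% to 52.0% in the apices and 28.9% and 52.0% in the inflorescence. On KNAT6 it was 8.33% to 19.4% in the apices and 25.9% in both inflorescence libraries. In the apices every base of the KNAT6 body under H3K27me3 was also under H3K4me3, while H3K27me3 past the gene is not counted here. On KNAT2 it was 17.4% in replicate 1 of each apex stage, 0% in replicate 2, and 17.4% and 20.6% in the inflorescence.

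**Figure D3:**
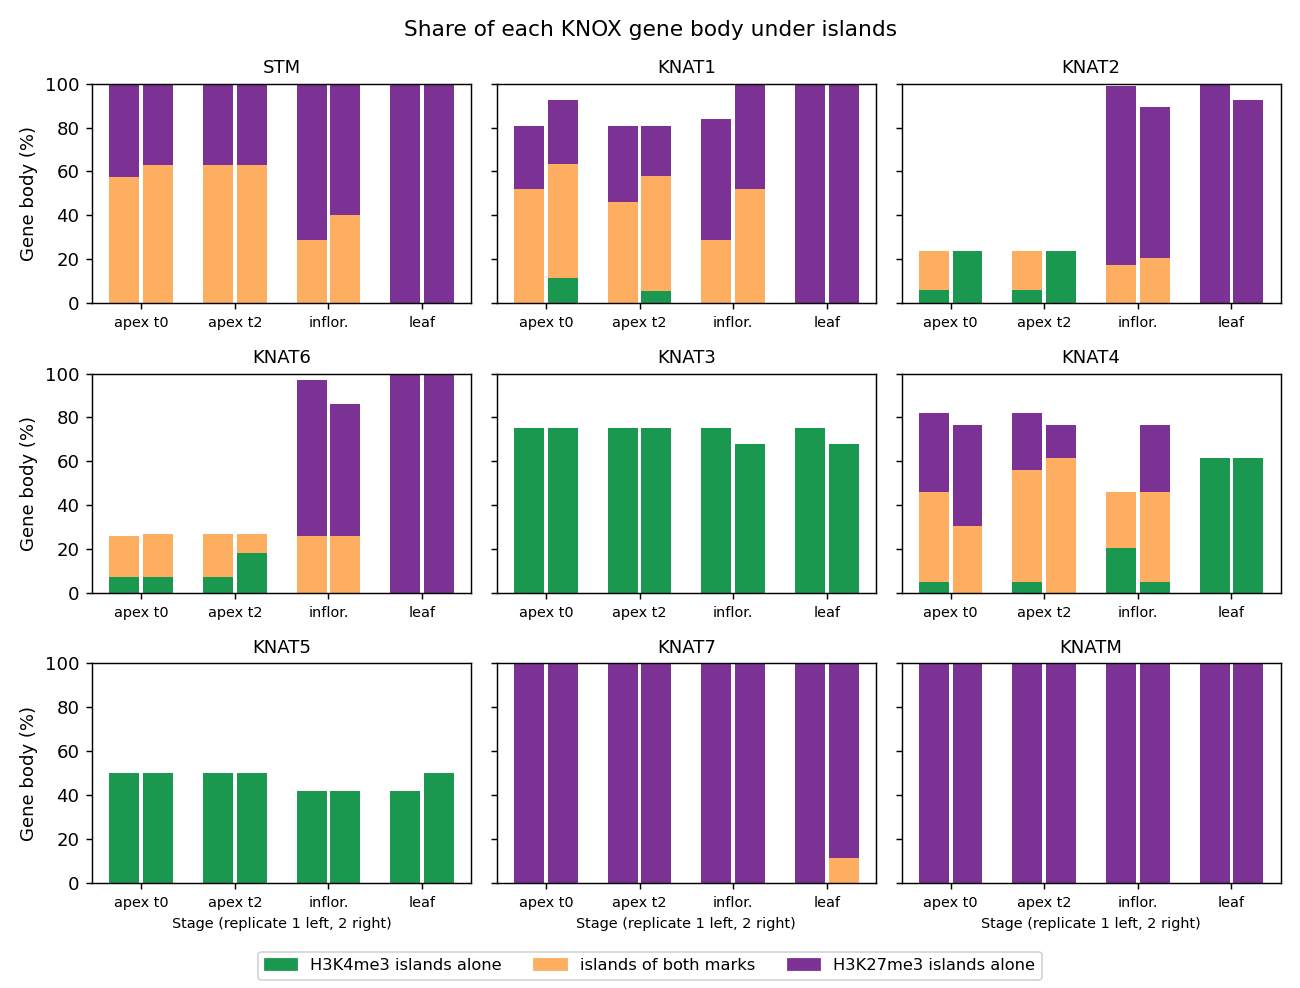
Share of each gene body under islands of H3K4me3 alone (green), of both marks (orange) and of H3K27me3 alone (purple), in percent, with replicate 1 left and replicate 2 right for each stage. Class I genes are under H3K27me3 alone in leaf and hold a part under both marks in the inflorescence and, except KNAT2 in replicate 2, in the apices. KNAT3 and KNAT5 are under H3K4me3 alone throughout.

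Class II genes did not behave as 1 group. KNAT3 and KNAT5 carried H3K4me3 alone on the gene body, KNAT7 carried H3K27me3 with almost no H3K4me3, and KNAT4 carried H3K4me3 everywhere and H3K27me3 only outside leaf.

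KNAT3 had 142 and 106 RPM of H3K4me3 at t0, 126 and 118 RPM at t2, 165 and 117 RPM in the inflorescence, and 146 and 107 RPM in leaf. The 4 stages overlapped. The log2 fold change of t0 against leaf was -0.03 ± 0.26 (adjusted p = 0.969). KNAT5 had 102 and 71.5 RPM at t0, 89.2 and 76.9 RPM at t2, 103 and 71.2 RPM in the inflorescence, and 109 and 79.3 RPM in leaf, and its stages overlapped as well (log2 fold change of t0 against leaf -0.12 ± 0.27, adjusted p = 0.838). Neither gene had an H3K27me3 island on its body in any library, like 60.8% of all genes. In level per kb, KNAT3 ranked above 82.1% to 93.3% of the genes marked by H3K4me3 in a library and KNAT5 above 68.0% to 84.1%.

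KNAT4 was the class II gene with called differences between tissues. It had 95.7 and 61.9 RPM of H3K4me3 at t0, 101 and 105 RPM at t2, 133 and 112 RPM in the inflorescence, and 208 and 158 RPM in leaf. Both leaf libraries were the highest of the 8. H3K4me3 fell at t0 against leaf, with a log2 fold change of -1.23 ± 0.25 (adjusted p = 0.0363), and KNAT4 was the 1 KNOX gene called lower, where 4.27% of genes tested were. The call held in 8 of 15 alternatives. It was lost without leaf replicate 1 (adjusted p = 0.148), without apex t0 replicate 2 (0.121), without any of the 4 apex t2 and inflorescence libraries (0.0613 to 0.0895) and without scaling between libraries (0.0534), over a range of 0.00022 to 0.148. The island started at 3510201 of chromosome 5 in every library and ended at 3512600 in leaf, at 3512000 and 3511400 at t0, at 3512400 and 3512600 at t2, and at 3512000 in both inflorescence libraries.

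KNAT4 had 228 and 226 RPM of H3K27me3 at t0, 191 and 164 RPM at t2, 40.7 and 170 RPM in the inflorescence, and no island in leaf. Its islands spanned 3510201 or 3510401 to 3513200 or 3513400 in the apices, 76.7% of the body, and 25.6% and 71.6% in the inflorescence. KNAT4 was the 1 KNOX gene called higher in H3K27me3 at t0 against leaf (adjusted p = 0.00177), where 5.66% of genes tested were, and the 1 called higher in the inflorescence against leaf (adjusted p = 0.00440), where 5.38% of genes tested were called and 3.57% were higher. The leaf pair at 0 RPM contributed no spread, and KNAT4 had entered this test only through the apices and the inflorescence. Islands in all 6 apex and inflorescence libraries and none in leaf occurred on 0.857% of all genes for this mark. Both calls were lost when islands under a fold of 2 were left out (adjusted p = 0.133 and 0.551) and under the 50% rule (0.166 and 0.562), over ranges of 0.000456 to 0.166 and 0.00138 to 0.562. Inflorescence replicate 1, the shallowest library, held the KNAT4 island on 92 reads at an authors' fold of 1.81. The inflorescence did not pass against t2 (log2 fold change -1.07 ± 0.67, adjusted p = 0.749), but was called lower without inflorescence replicate 2 (log2 fold change -2.09, adjusted p = 0.0158; 0.0158 to 1 over 15 alternatives). Both marks lay on 30.7% to 61.4% of the KNAT4 body in the apices and on 25.6% and 40.9% in the inflorescence.

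KNAT7 had 324 and 296 RPM of H3K27me3 at t0, 319 and 311 RPM at t2, 268 and 217 RPM in the inflorescence, and 344 and 232 RPM in leaf. The leaf range took in both apex stages, and the apex libraries were above the inflorescence libraries. No comparison passed, with log2 fold changes of 0.13 ± 0.21 for t0 against leaf (adjusted p = 0.750) and -0.38 ± 0.21 for the inflorescence against t2 (adjusted p = 0.749). The whole KNAT7 body was covered in every library, but the island differed in length. It ran 12.2 to 12.4 kb in the apices, from 23328601 or 23328801 to 23341000, and touched EXPA18, an expansin gene, and 3 other genes on the low-coordinate side. It was 4.8 and 5.0 kb in the inflorescence and 6.6 and 5.0 kb in leaf, and in these 4 libraries it reached at most 1.17 kb past the low-coordinate end. H3K4me3 was found on KNAT7 in leaf replicate 2 only, in an island of 0.4 kb with 283 reads (13.4 RPM).

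KNATM had 79.4 and 85.8 RPM of H3K27me3 at t0, 84.2 and 85.8 RPM at t2, 72.9 and 96.1 RPM in the inflorescence, and 105 and 89.6 RPM in leaf. Both leaf libraries were just above the apex libraries, the inflorescence overlapped both, and no comparison passed (log2 fold change of t0 against leaf -0.23 ± 0.17, adjusted p = 0.498). The island covered the whole gene, a body of 0.949 kb, in all 8 libraries, and started at 5083401 or 5083601 of chromosome 1. The neighbouring gene AT1G14755 lies 0 bp from KNATM, overlapping or adjoining it. Each island on KNATM also touched AT1G14755, so the reads of these islands cannot be told apart between the 2 genes. H3K27me3 in all 8 libraries was also found on STM, KNAT1, KNAT6 and KNAT7, and on 21.6% of all genes.

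**Figure D4:**
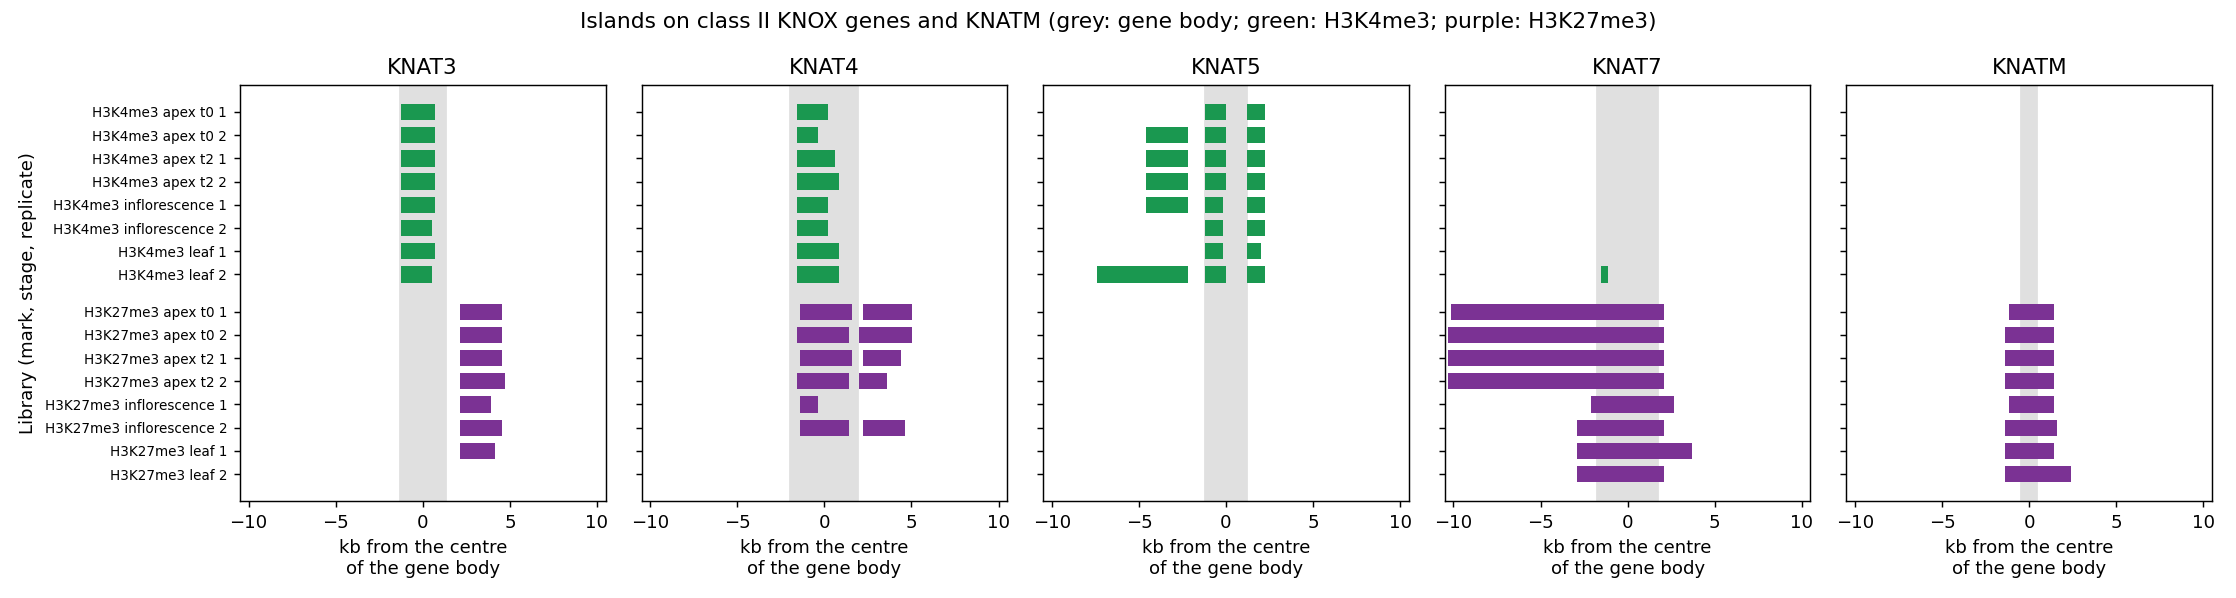
Islands on the 4 class II genes and KNATM in the 16 libraries, as kb from the centre of the gene body along the chromosome, with the gene body in grey, H3K4me3 islands in green and H3K27me3 islands in purple. KNAT4 has H3K27me3 in the 6 apex and inflorescence libraries and none in leaf, and the KNAT7 island is 12.2 to 12.4 kb long in the apices.

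Set side by side as the mean over 4 genes, class I had 38.2 and 28.5 RPM per kb of H3K27me3 at t0 and class II 37.6 and 35.4. At t2 class I had 36.9 and 25.2 and class II 34.8 and 32.5. In the inflorescence class I had 74.9 and 69.3 and class II 21.6 and 26.3, and in leaf class I had 120 and 102 and class II 24.4 and 16.5. The class I mean was thus above the class II mean in both leaf and both inflorescence libraries, and the order in the apices differed between replicates. For H3K4me3 class I had 19.8 and 23.2 RPM per kb at t0 and class II 30.2 and 21.4. At t2 class I had 20.5 and 22.1 and class II 27.6 and 25.9. In the inflorescence class I had 7.31 and 13.7 and class II 34.8 and 25.6, and in leaf class I had no island on the body and class II 38.5 and 29.4. In RPM per kb, class I was below class II in 7 of 8 H3K4me3 libraries. Gene length enters this order, since KNAT2 and KNAT6 have bodies of 6.394 and 5.411 kb and class II genes of 2.393 to 3.909 kb. In RPM without division by length the order can differ. In t2 replicate 2, class I genes had 87.1 to 104 RPM. KNAT3, KNAT4 and KNAT5 had 118, 105 and 76.9 RPM there, and KNAT7 had no island. The class II mean for H3K27me3 rests on KNAT4 and KNAT7, and that for H3K4me3 on KNAT3, KNAT4 and KNAT5, with the short KNAT7 island in leaf replicate 2. Single genes crossed the classes, since KNAT7 had 84.0 to 92.0 RPM per kb of H3K27me3 in the apices, where STM had 64.3 to 86.4. The members of a class are not replicates, so no test was made of these means.

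No KNOX gene was called between the apices before and after dexamethasone. At t2 against t0, none of the 17620 genes tested for H3K4me3 and none of the 8676 tested for H3K27me3 passed in limma, with 156 and 39 of them at an unadjusted p under 0.05. Both counts are below a share of 0.05, which is expected where no gene differs, so the test was conservative here. The deviations of same-numbered t0 and t2 libraries correlated at 0.427 and 0.430, and the fit by stage alone leaves them in the spread. The lack of calls thus does not show that the marks stayed the same. The log2 fold changes of the 7 KNOX genes tested for H3K4me3 lay between -0.07 for KNAT1 and 0.42 for KNAT4, and those of the 6 with H3K27me3 islands in all 4 libraries between -0.70 ± 0.31 for KNAT6 and 0.04 ± 0.17 for KNATM. KNAT4 was called higher in H3K4me3 under the 50% rule, where t0 falls below the limit (adjusted p = 0.00206; 0.00206 to 1 over 15 alternatives). On STM the H3K27me3 islands of t2 and t0 had the same bounds in both replicates. The 2 apex stages share their control reads, as do leaf and inflorescence, so the controls differ where apices are set against either.

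Regulators and partners of KNOX proteins were followed through a list of 30 genes, also chosen with earlier results of these data known. For H3K4me3 at t0 against leaf, 24 of the 30 were tested, 7 were higher and 5 lower, where 3.86% and 4.27% of all genes tested were, with a median log2 fold change of 1.31 against -0.01 over all genes tested. For H3K27me3 21 were tested, 3 were higher and 3 lower, where 5.66% and 4.00% of all genes tested were, with a median of 0.10 against 0.09 over all genes. In these medians a gene without an island counts as 0 RPM, so their size is not a measured fold. Genes of the list without an island in one of the groups compared had entered the test only through the stages that carry the mark, and that group contributed no spread to their p. In the inflorescence against t2 the counts were 0 higher and 3 lower for H3K4me3, where 0.795% and 0.488% of all genes tested were, and 1 higher and 1 lower for H3K27me3, where 1.74% and 1.78% were. Against leaf the inflorescence had 1 higher and 0 lower for H3K4me3, where 2.16% and 1.94% of all genes tested were, and 2 higher and 0 lower for H3K27me3, where 3.57% and 1.81% were. None passed at t2 against t0.

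Among the regulators, the boundary genes CUC2 and CUC3, which act upstream of STM, had H3K4me3 in the apices alone. CUC2 had 42.0 and 53.6 RPM at t0, 43.3 and 48.1 RPM at t2, and no island in inflorescence or leaf (t0 against leaf, adjusted p = 0.00676; inflorescence against t2, adjusted p = 0.0344). CUC3 had 44.9 and 69.7 RPM at t0, 44.2 and 64.9 RPM at t2, and no island in the inflorescence or leaf (adjusted p = 0.00676 and 0.0344). Both genes were tested only through the apices, and the groups at 0 RPM contributed no spread. The CUC2 call at t0 was lost under the 50% rule (adjusted p = 0.386; 0.00525 to 0.386 over 15 alternatives), and both inflorescence calls were lost when any 1 of the 8 libraries was left out. AS1, a leaf repressor of class I genes, had 115 and 108 RPM of H3K4me3 at t0, against 54.4 and 71.3 RPM in leaf, a log2 fold change of 0.83 ± 0.15 (adjusted p = 0.0228; called in 10 of 15 alternatives). BOP2, which acts at the leaf base, had 83.6 and 87.2 RPM at t0, against 16.6 and 36.9 RPM in leaf (1.74 ± 0.35, adjusted p = 0.0341; called in 9 of 15 alternatives). AS2, the partner of AS1, and JLO, a boundary gene, were not tested for H3K4me3. Their H3K27me3 differed by 0.10 ± 0.09 (adjusted p = 0.545) and -0.07 ± 0.14 (adjusted p = 0.800) on the log2 scale between t0 and leaf.

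BELL partners went both ways. BLH9, also called PENNYWISE, a partner of STM in the inflorescence, had no H3K27me3 island in the apices, 310 and 189 RPM in the inflorescence, and 468 and 467 RPM in leaf (t0 against leaf, adjusted p = 0.00119; inflorescence against t2, adjusted p = 0.00556, lost without apex t2 replicate 2 at 0.0570). Its H3K4me3 was 131 and 114 RPM at t0 against 34.8 and 51.2 RPM in leaf, a log2 fold change of 1.51 ± 0.20 (adjusted p = 0.00910, lost without apex t0 replicate 1 at 0.0598). Its paralogue BLH8 (POUND-FOOLISH) had no H3K27me3 island at t0, against 298 and 325 RPM in leaf (adjusted p = 0.0485, and 0.0620 with the replicate number as a block). That call was also lost without either leaf, t0 or inflorescence library.

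BLH2 and BLH4 (SAWTOOTH1 and SAWTOOTH2), which restrain KNAT1 in leaves, had the opposite arrangement. BLH4 had 17.2 and 23.5 RPM of H3K4me3 at t0, against 167 and 131 RPM in leaf, a log2 fold change of -2.82 ± 0.27 (adjusted p = 0.00498, lost when islands under a fold of 2 were left out). BLH2 had 21.8 and 24.4 RPM at t0, against 190 and 128 RPM in leaf (-2.71 ± 0.43, adjusted p = 0.0162, lost without leaf replicate 1 or either t0 library). BLH4 had 552 and 513 RPM of H3K27me3 at t0, against 49.2 RPM and no island in leaf, which did not pass (adjusted p = 0.114; called in 4 of 15 alternatives, 6.88e-05 to 0.410). BEL1, an ovule identity gene, had 415 and 308 RPM of H3K27me3 at t0, 267 and 316 RPM in the inflorescence, and no island in leaf (adjusted p = 0.000217 and 0.000299). BLH1 had 232 and 230 RPM at t0, 119 and 105 RPM in the inflorescence, and none in leaf (adjusted p = 0.000131 and 0.000224, both lost when islands under a fold of 2 were left out). Like KNAT4, both had islands of this mark in the apices and inflorescence and none in leaf, and both were tested only through the stages with islands. BEL1 also had 31.2 and 73.6 RPM of H3K4me3 at t0, against 186 and 179 RPM in leaf (-1.90 ± 0.41, adjusted p = 0.0440), a call that was lost without 7 of the 8 libraries in turn.

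Of the other members of the list, BLH6 and BLH5 had islands in the apices alone and were tested only through them. BLH6, which works with KNAT7 on secondary walls, had 36.4 and 53.7 RPM of H3K27me3 at t0, 36.9 and 41.2 RPM at t2, and no island in inflorescence or leaf (t0 against leaf, adjusted p = 0.00207; inflorescence against t2, adjusted p = 0.00581, lost without apex t2 replicate 2; both lost with 1 kb either side). BLH5 had 19.0 and 20.6 RPM of H3K4me3 at t0, 24.9 and 25.6 RPM at t2, and none in inflorescence or leaf (adjusted p = 0.0122 and 0.0415, the second 0.0593 with the replicate number as a block). The first was lost without leaf replicate 1 or apex t0 replicate 2, and the second without any 1 library. GA2OX4, a gene for a gibberellin-inactivating enzyme, had 120 and 125 RPM of H3K27me3 at t0, against 285 and 207 RPM in leaf (-0.99 ± 0.21, adjusted p = 0.0499). It had 13.9 and 8.73 RPM of H3K4me3 at t0 and none in leaf (adjusted p = 0.0266). OFP5, an OVATE family partner of KNOX and BELL proteins, had no H3K4me3 island at t0, against 78.6 and 79.5 RPM in leaf (adjusted p = 0.0432). The calls on GA2OX4 and OFP5 were each lost without several single libraries.

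Among 2609 genes tested in both marks, the genes whose levels followed the mean of the 4 class I genes most closely over the 16 libraries were AT1G02810 (Pearson r = 0.959), BEN1 (0.950), AIL7 (0.948), AT5G56880 (0.948) and AIL6 (0.946). BEN1 acts in brassinosteroid metabolism, and AIL6 and AIL7 encode AP2-domain regulators of meristems. AIL6 had 61.1 and 97.3 RPM of H3K4me3 at t0, 29.9 and 50.4 RPM in the inflorescence, and no island in leaf. For the mean of KNAT3, KNAT4 and KNAT5 over the 8 H3K4me3 libraries they were PIRL3 (0.991), ACBP3 (0.988), AT3G24070 (0.985), HSP1 (0.985) and COI1 (0.984), out of 17613 genes compared. COI1 is the jasmonate receptor and ACBP3 an acyl-CoA-binding protein. The points of each correlation share libraries and depth. H3K4me3 on KNAT3 and KNAT5 overlapped between stages, and replicate 1 was above replicate 2 in every stage for both. Whether the class II correlations follow this offset between replicates or the tissues was not tested.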

How the data were processed

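Libraries were ChIP-seq of H3K4me3 and H3K27me3, with 4 stages, 2 replicates each. The submitters' processing notes name SICER 1.1, Picard 1.93, BWA 0.6.2-r126, bedtools 2.17.0-97, CASAVA 1.8.2 and SAMtools 0.1.19, with the TAIR10 build. The window, gap and threshold of the island calls are not given in the sources used here. The deposited files list the authors' islands for each library with whole-number counts of ChIP and control reads, a fold ratio over control and p-values, and only regions past the authors' threshold are listed. Per the labels' protocols, replicates differ in sonication, antibody lot, library kit and sequencer, replicate 2 pooled technical ChIPs, and wild-type samples started from less chromatin than cauliflower apices. In 16 pairs of libraries the control reads were equal over every island with the same bounds, at least 63 islands per pair. These pairs were taken to share a control. The 6 input samples are not used here.

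Island reads were shared out to gene bodies (RefSeq TAIR10.1 gene table; used for names, neighbours and lengths) by the overlap of each island. A gene was marked where at least 200 bp lay under islands. Offsets between the files and the table were checked in 116 bins of 1 Mb, of which 115 had their largest overlap at an offset of 0. RPM used trimmed-mean scaling with 30% and 5% trimmed, and log2(RPM + 1) was fitted in limma 3.58.1 (R 4.3.3, statmod 1.5.0) with trend and robust settings, with stage as the term, 8 libraries per mark and 4 residual degrees of freedom. The test took the 17620 genes (H3K4me3) and 8676 genes (H3K27me3) that both replicates of some stage had marked, two-sided with Benjamini-Hochberg adjustment over all of them. No count model was used, since reads outside islands are not listed. The fit was also run on simulated counts without an island threshold. That run does not cover calls in which a group had no island.

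Replicate numbers pair the samples, since the protocols give each number its own processing. The deviations of same-numbered libraries correlated at 0.224 to 0.427 for H3K4me3 and 0.149 to 0.430 for H3K27me3 over genes. Nothing in the labels says that replicates were separate plants, so p-values measure the spread between these samples. Alternatives were the replicate number as a block, no scaling, a pseudocount of 5, 1 kb either side, islands of fold 2 or more, at least 50% of the body covered, a looser filter, and leaving out each library. The genes named besides the family are up to 4 per comparison and direction by size of change from the list of 30, genes within 1 kb and the 5 most alike. Members and lists were chosen with earlier results of these data known.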

Additional observations from a re-analysis of the deposited data

How the results depend on the processing

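Of 13 called KNOX results, 96 of 104 values with 1 library left out and 78 of 87 values under the other settings kept the call, and the exceptions stand beside the results. Of 43 results that were not called, 341 of 344 and 286 of 297 stayed so. Results on the list of 30 were less stable, and 85 of 208 called values were lost with 1 library left out. With the replicate number as a block, which pairs the libraries, 2376 genes were called for H3K4me3 at t0 against leaf (1433 without it) and 104 in the inflorescence against t2 (226 without it). Besides the calls named in the text, the block made CUC3 H3K27me3 and BLH1 H3K4me3 pass at t0 against leaf and BLH1 H3K4me3 in the inflorescence against leaf, and changed no other call among the KNOX genes and the list. In the inflorescence against t2, H3K4me3 calls numbered 127 with a pseudocount of 5, 112 with 1 kb either side, 370 under the 50% rule and 0 under the looser filter, and H3K27me3 calls 59 under the looser filter (305 without it). Between t2 and t0 the 50% rule gave 102 H3K4me3 and 13 H3K27me3 calls, and islands of fold 2 or more gave 24 H3K27me3 calls. Leaving out each library gave 700 to 3133 H3K4me3 calls at t0 against leaf, 0 at t2 against t0, 0 to 2 in the inflorescence against t2, and 72 to 1862 in the inflorescence against leaf. For H3K27me3 it gave 679 to 1721, 0 to 15, 0 to 1008 and 419 to 1320 in the same order. The libraries that moved a count by over 1.5 times were, for H3K4me3 at t0 against leaf, leaf replicate 1 (745) and 2 (3133), t0 replicate 1 (700) and 2 (738) and t2 replicate 2 (903), each with the count without it. In the inflorescence against t2 any of the 8 did so, and in the inflorescence against leaf leaf replicate 1 (402) and 2 (1862) and t2 replicate 1 (271) and 2 (72). For H3K27me3 they were leaf replicate 2 (1721) and inflorescence replicate 1 (1309) and 2 (1315) at t0 against leaf, and inflorescence replicate 1 and 2 (15 each) at t2 against t0. In the inflorescence against t2 they were t2 replicate 2 (0) and inflorescence replicate 2 (1008), and in the inflorescence against leaf they were leaf replicate 2 (1320) and inflorescence replicate 1 (767) and 2 (929). Directions turned for KNAT4 H3K4me3 in the inflorescence against t2 under the 50% rule (log2 -8.01), where no inflorescence library passes the rule. STM and BLH9 H3K4me3 in the inflorescence against leaf came to 0 under the 50% rule, and STM also with islands of fold 2 or more, since no island was left in either stage. The fewest reads of any island in a library were 35 to 120, and signal below the authors' threshold is not listed. The planned search of promoters for motifs was not run.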

Other observations

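Genes next to KNOX genes carried marks of their own. MENG, 299 bp from KNAT6, had an H3K4me3 island in 8 of 8 libraries, so that in leaf it lay beside a KNAT6 body wholly under H3K27me3. AT1G62350, 467 bp from STM, had an H3K4me3 island within 1 kb of STM in replicate 2 of each apex stage. AT5G25230, 943 bp from KNAT3, had an H3K27me3 island reaching the 1 kb flank of KNAT3 in 7 of 8 libraries, all but leaf replicate 2, which is why KNAT3 has that mark in its flank and none on its body. The H3K27me3 islands of KNAT4 in the apices were followed by separate islands on the side of AT5G11070. KNAT2 had a separate H3K4me3 island within 1 kb of its high-coordinate end in 8 of 8 libraries. In leaf it ran from 26583401 to 26584400, with an authors' fold of 6.60 and 4.47. This island touched no other gene of the annotation.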
